A study of Mus musculus with 8 samples.

Results

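Rbm25, Luc7l3 and Luc7l2 encode splicing factors that work with the U1 small nuclear ribonucleoprotein. All sites listed under these 3 gene names in the authors' deposited table of differentially methylated sites were taken. There were 39 sites, of 2055 in the whole table: 26 in Rbm25, 10 in Luc7l3 and 3 in Luc7l2. The sites were thus selected on the authors' own comparison of aged with young cells, so their differences between the ages are given as a description, with no added test. The authors listed 2055 sites, 7.06% of the 29127 sites that their adjusted p-values imply.

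The U1 particle pairs with the 5′ splice site at the start of an intron. Luc7 proteins are known from yeast as U1 components that help choose weak 5′ splice sites, and Luc7l2 and Luc7l3 are mammalian members of that family, with zinc fingers and an arginine-rich tail. Human RBM25 binds U1 components and regulates alternative splicing. It carries an RNA recognition motif, a central region rich in arginine and glutamate, and a PWI domain near its end. N6-methyladenosine (m6A) is a methyl mark on adenosines of mRNA.

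The cells came from cortex of APOBEC1-YTH mice treated with tamoxifen. APOBEC1-YTH joins a cytidine deaminase to a domain that binds m6A, so a C that follows a methylated A can be read as U. The aged mice were 12 to 14 months old when treatment began, received 20 mg/kg tamoxifen every 24 h for 5 days, and were collected 7 days after the last dose. The 8 aged libraries are 4 lanes of each of 2 sublibraries, so they are not biological replicates. The young cells come from another series of the same work, and nothing read here states their age, treatment or kit. Nor are the number of mice, the promoter of the transgene and the target of tamoxifen. The sample protocols describe fixed whole cells and polyA RNA, whereas the series' design text describes NeuN-stained nuclei and total RNA.

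The table holds 1 value per site and age, over 846 aged and 2623 young cells, with no value per library or mouse. No difference between the ages therefore has a replicate error. Each site has 3 measures. The share is the percent of all cells of an age that are methylated, with a 95% Clopper-Pearson interval, an exact binomial range for counting error alone. C-to-U within cells is the mean over methylated cells, and mean C-to-U is the mean over all cells, so it equals the share times the level within cells. A cell with no read at a site is counted among the unmethylated, and reads per site are not in the table. Expression and coverage were not measured here, so their part in any difference was not tested. Of the marker genes looked up, 6 of 8 of neurons, 1 of 6 of astrocytes, 1 of 6 of oligodendrocytes, 0 of 6 of microglia and 0 of 4 of endothelial cells had a listed site. These counts show listing, not expression, so the cell types behind the values could not be checked.

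The bases around the sites are shown first, since 18 of the 39 sites, 15 of them in Rbm25, share 5 bases around the edited C. A stretch of 99 bases in exon 11 of Rbm25 (chr12:83668110-83668208, plus strand, mm10) held 8 listed sites, whose edited C stands in capitals.
Rbm25 exon 11: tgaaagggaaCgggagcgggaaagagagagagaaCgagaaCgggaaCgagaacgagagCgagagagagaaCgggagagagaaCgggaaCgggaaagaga
The stretch is a run of arginine and glutamate codons, and it holds the 5 bases GAACG, with the edited C at the fourth base, 8 times. Of those 8, 7 were listed. In frame the 5 bases read as the glutamate codon GAA followed by an arginine codon that opens with CG.

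The sites with the largest increase in Luc7l3 and Luc7l2 are shown because the same run of 14 bases surrounds them. That run is in capitals, and it holds GAACG. No other listed site on a transcript with the full window had it, since 2 of 2005 did.
Luc7l3 exon 8, chr11:94297049-94297069, minus strand: aAGAGAAGAACGGGAaagaaa
Luc7l2 exon 7, chr6:38593443-38593463, plus strand: gAGAGAAGAACGGGAgaaact
In both genes the edited C opened the codon CGG after GAA, at codon 268 of 492 in Luc7l3 and codon 255 of 393 in Luc7l2. The largest Rbm25 site, in exon 11, shared 10 bases around its C with Luc7l3 and 9 with Luc7l2.

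Of the 39 sites, 37 lay in coding sequence of the main transcript of their gene. Of these, 18 (48.6%, interval 31.9 to 65.6) had GAACG, against 130 of 758 listed coding sites of other genes (17.2%, 14.5 to 20.0). Most were in Rbm25, with GAACG at 15 of its 26 sites. Luc7l3 had it at 2 of 10 sites (20%, 2.5 to 55.6), near the share in other genes, and Luc7l2 at 1 of 3. GAACG accounted for 30 of the 926 C in the coding sequences of the 3 genes (3.24%), and 18 of those 30 were listed. The edited C opened a CGN arginine codon at 28 of the 37 coding sites (75.7%), against 152 of 758 in other genes (20.1%) and 127 of the 926 C (13.7%). It was the first base of its codon at 31 of 37 sites (83.8%), against 286 of 758 in other genes (37.7%). At all 18 GAACG sites the arginine codon followed GAA. An A stood before the edited C at 28 of 37 coding sites (75.7%), against 611 of 758 in other genes (80.6%), a share whose intervals overlap. All 28 had A or G before that A. At the 18 GAACG sites a G followed the edited C, and whether the A there carries m6A was not tested apart from the edit. Sites of a gene share its sequence, so these shares describe the 3 transcripts and are not independent observations.

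**Figure D1:**
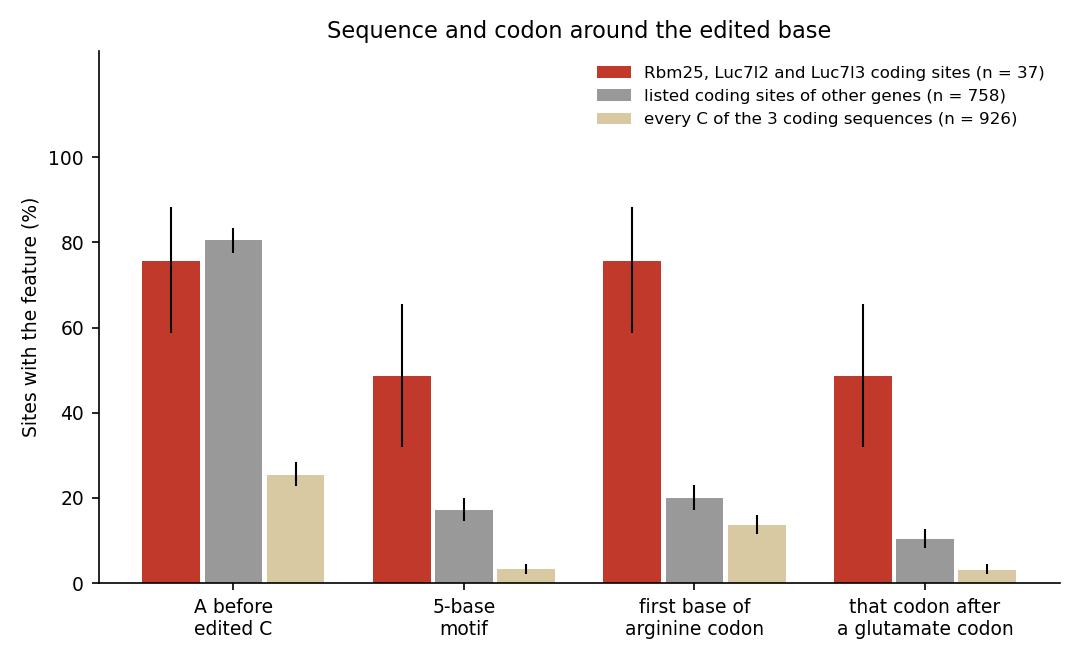
Percent of sites with each feature of the edited base, as bars with 95% Clopper-Pearson intervals, for the 37 coding sites of Rbm25, Luc7l2 and Luc7l3, the 758 listed coding sites of other genes and all 926 C of the 3 coding sequences. The 5-base motif and the arginine codon features stand at 48.6% to 75.7% in the 3 genes together and at 10.4% to 20.1% in other genes, while an A before the edited C stands at 75.7% and 80.6%. Of the 18 sites with the 5-base motif, 15 are in Rbm25.

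A C-to-U change would turn the codon into a stop codon at 14 of the 37 coding sites (37.8%, 22.5 to 55.2), against 127 of 758 in other genes (16.8%). The edited codon was CGA at 11 of the 37, and CGG, which gives no stop codon, at 13. At the 11 CGA sites median C-to-U within cells was 2.97% in aged and 8.52% in young cells, and at the 13 CGG sites it was 14.6% in aged and 13.4% in young cells. The CGA level was the lower of the pair in either age. In other genes only codons after GAA were taken, whereas the medians of the 3 genes cover these codons after any codon, so the sets are not alike. In other genes the codon after GAA had medians of 29.2% in aged and 36.3% in young cells for 14 CGA sites. For 58 CGG sites they were 73.4% in aged and 60.5% in young cells.

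The sites gathered in a few exons. In Rbm25, exons 10 and 11 made up 19.8% of the coding bases and held 21 of the 25 coding sites, or 4.22 per 100 coding bases, against 0.198 in the other exons. These exons also held 21 of the 25 GAACG of the coding sequence, of which 14 were listed. In Luc7l3, exons 8 and 9 made up 30.1% of the coding bases and held 9 of the 10 sites. Both GAACG of its coding sequence lay in exon 8, and both were listed. In Luc7l2, with 3 GAACG, 1 was listed. Neighbouring Rbm25 sites of an exon lay a median of 12 bases apart, and 14 of the 20 gaps were multiples of 6, the length of a pair of codons. In Luc7l3 1 of 7 gaps was.

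**Figure D2:**
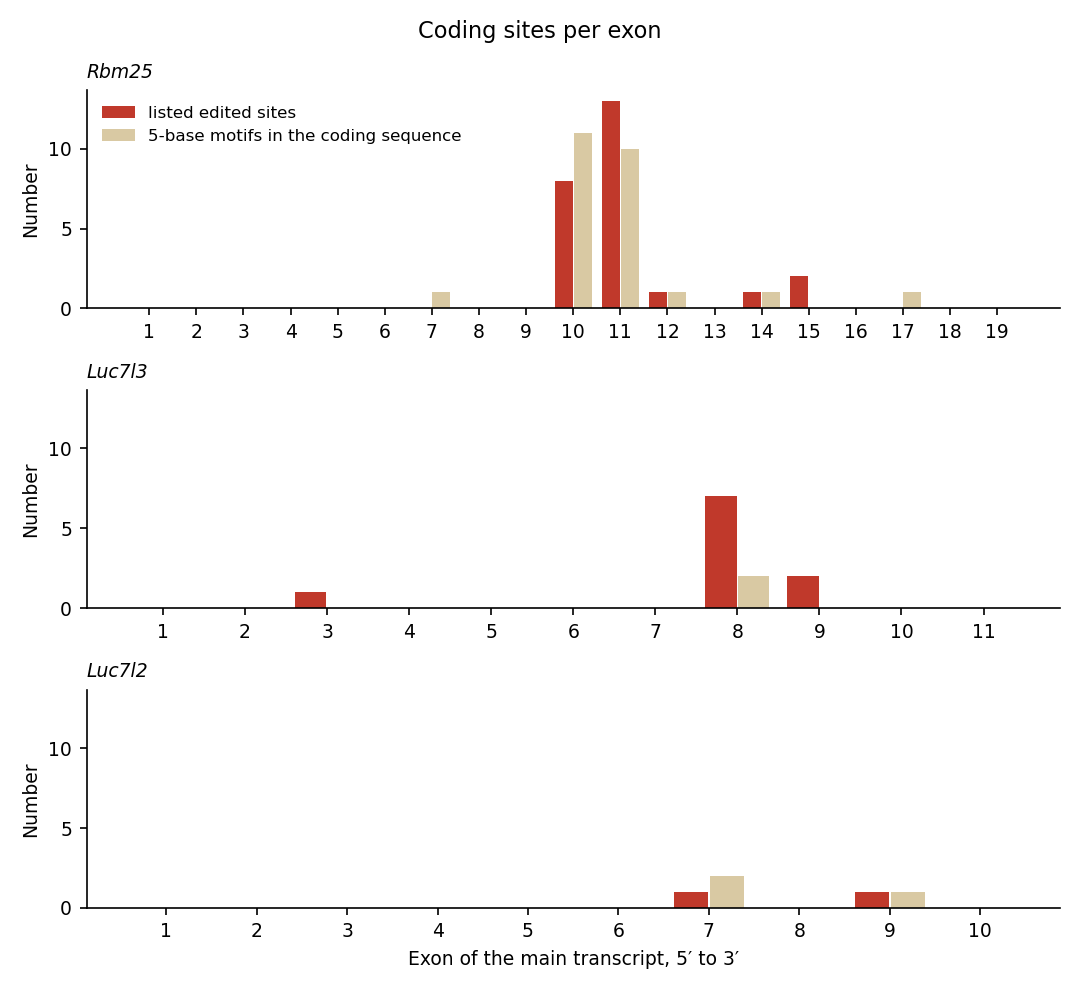
Number of listed coding sites and number of 5-base motifs in the coding sequence for each exon of the main transcripts of Rbm25, Luc7l3 and Luc7l2, numbered 5′ to 3′. Exons 10 and 11 of Rbm25 hold 21 sites and 21 motifs, while exon 8 of Luc7l3 holds 7 sites and 2 motifs.

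In aged cells a larger share of cells was methylated at all 39 sites than in young cells. This held for 1550 of all 2055 listed sites (75.4%) and for 94.5% of the 758 coding sites of other genes, so a count of 37 of 37 coding sites is near what listed coding sites do in general. The aged interval lay above the young interval at 34 of the 39 sites, against 47.4% of all listed sites, and at the remaining 5 the intervals overlapped. Among coding sites it lay above at 33 of 37, against 62.7% in other genes. Whether intervals lie apart depends on the number of methylated cells. The median number per site was 65 at the 37 coding sites, 41 at coding sites of other genes and 54 at all listed sites. The median ratio of aged to young share was 3.56 (range 1.74 to 11.2), and in coding sites of other genes it was 2.97.

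By mean C-to-U the sites were split. Aged cells had the higher value at 23 of the 39 sites and the lower value at 16, whereas 41.5% of all listed sites and 58% of coding sites of other genes were higher. Within methylated cells C-to-U was higher in aged than in young cells for 11 of the 39 sites and lower for 28, and 31.9% of all listed sites and 36.1% of coding sites of other genes were higher. Among the 37 coding sites of the 3 genes alone, the mean was higher in aged cells at 21 (56.8%), near the share in coding sites of other genes. Within cells, aged cells had the higher C-to-U at 9 of the 37 (24.3%, interval 11.8 to 41.2). That interval holds the 36.1% of coding sites of other genes. The median ratio of aged to young C-to-U within cells was 0.370 at these 37 sites, against 0.660 at coding sites of other genes, a difference given with no test. All 3 measures were higher in aged cells at 11 sites. At 12 sites the mean was higher with less C-to-U within cells, and at 16 the mean was lower although more cells were methylated.

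**Figure D3:**
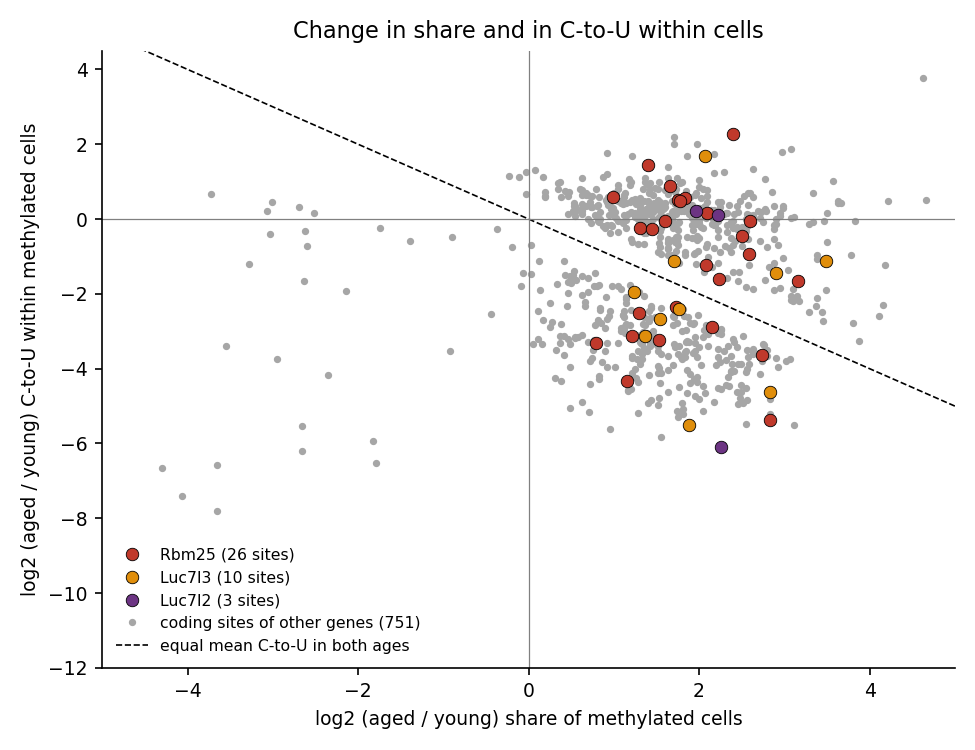
Log2 ratio of aged to young for the share of methylated cells (x axis) and for C-to-U within methylated cells (y axis), for the 39 sites of Rbm25, Luc7l3 and Luc7l2 and for 751 coding sites of other genes with a methylated aged cell. Points above the dashed line have a higher mean C-to-U in aged cells, and the empty band along it is the range under an absolute log2 ratio of 0.58, which the table does not list; all 39 sites lie right of 0 on the x axis.

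Rbm25 had the sixth highest number of listed sites among 789 genes. Its main transcript has 19 exons on the plus strand of chromosome 12 (83632252 to 83683123, mm10) and 839 codons. Of its 26 sites, 17 had a higher mean C-to-U in aged cells and 9 a lower one. Its largest increase was at position 83668192 in exon 11 (codon 416) and is the seventh capital of the stretch shown above. Mean C-to-U there was 4.51% in aged and 1.49% in young cells. Methylated cells made up 22.6% (19.8 to 25.5) of aged and 11.3% (10.1 to 12.6) of young cells, the highest share of an Rbm25 site in either age. The ratio of the shares, 1.99, was the second lowest in the gene. C-to-U within cells was 20.0% in aged and 13.2% in young cells.

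The 3 next largest increases of mean C-to-U in Rbm25 also had GAACG. At position 83672792 in exon 14 (codon 529) the mean was 2.91% in aged and 0.612% in young cells, with methylated cells at 10.0% (8.10 to 12.3) of aged and 2.94% (2.32 to 3.66) of young cells. Exon 14 held no other listed site. Position 83668150, the third capital of the stretch, had a mean of 2.19% in aged and 0.453% in young cells, and its methylated cells were 11.5% (9.40 to 13.8) of aged and 3.39% (2.73 to 4.16) of young cells. Position 83664084 in exon 10 (codon 324) had 1.59% in aged and 0.273% in young cells, with methylated cells at 6.15% (4.62 to 7.98) of aged and 1.94% (1.45 to 2.55) of young cells. At each of these 4 sites the share and the level within cells were both higher in aged cells, and the intervals of the shares lay apart. Their adjusted p in the authors' deposited table was 2.41e-15 at position 83668192, 6.58e-20 at 83672792, 3.70e-21 at 83668150 and 7.03e-16 at 83664084.

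GAACG occurred at Rbm25 sites of either direction. Of the 15 sites with it, 10 had a higher mean in aged cells and 5 a lower one. Of the 10 other coding sites, 6 were higher and 4 lower. The decreases of mean C-to-U in Rbm25 were small in points, and none of the 3 largest in points had GAACG or an A before the C. At position 83674417 in exon 15 (codon 586) the mean was 0.216% in aged and 0.331% in young cells. At position 83668439 in exon 12 (codon 461) it was 0.0207% in aged and 0.121% in young cells, and at position 83668269 in exon 11 (codon 441) it was 0.0716% in aged and 0.166% in young cells. More aged than young cells were methylated at each of them. The share was 5.20% (3.80 to 6.92) of aged and 1.56% (1.12 to 2.11) of young cells at 83674417, 2.72% (1.73 to 4.05) of aged and 0.381% (0.183 to 0.700) of young cells at 83668439, and 3.19% (2.11 to 4.61) of aged and 1.30% (0.899 to 1.81) of young cells at 83668269. C-to-U within cells was lower in aged cells, which follows by construction from a lower mean with a larger share. It was 4.15% in aged and 21.2% in young cells at 83674417, 0.761% in aged and 31.8% in young cells at 83668439, and 2.24% in aged and 12.8% in young cells at 83668269.

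The sites at the ends of the gene differed from each other in kind. Position 83660752, the first, lay in intron 9 of the main transcript, 74 bases from the nearest exon, within an annotated retained-intron transcript, and no A preceded its C. Its mean was 1.15% in aged and 0.160% in young cells, but only 17 aged and 20 young cells were methylated. Its shares of 2.01% (1.17 to 3.20) of aged and 0.762% (0.466 to 1.18) of young cells had overlapping intervals. Within those few cells C-to-U was 57.1% in aged and 20.97% in young cells. Position 83674435, the last, lay in exon 15 (codon 592) after A but without GAACG. Methylated cells made up 18.0% (15.4 to 20.7) of aged and 3.81% (3.11 to 4.62) of young cells, the second highest aged share in the gene. Its mean was 3.02% in aged and 1.95% in young cells, while C-to-U within cells was 16.8% in aged and 51.1% in young cells. The larger number of methylated aged cells thus carried a smaller converted fraction.

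Within exons 10 and 11 neighbouring sites did not all move alike. Of the 8 sites of the printed stretch, 7 had a higher mean in aged cells. The exception was position 83668156, the fourth capital, at 0.0299% in aged and 0.0552% in young cells, although 3.31% (2.21 to 4.75) of aged and 0.496% (0.264 to 0.846) of young cells were methylated. It lies 6 bases from position 83668150, described above. In exon 10 4 of 8 sites were higher by mean. There positions 83664078 and 83664084, again 6 bases apart, had a level within cells of 0.423% and 25.8% in aged cells, while in young cells it was 8.52% at 83664078 and 14.0% at 83664084. Of the 13 neighbouring Rbm25 pairs within 12 bases, 4 went in opposite directions by mean. Position 83664018 (codon 302), where the edited C opens the codon CAG, had the largest ratio in the gene, with a mean of 1.20% in aged and 0.0473% in young cells, a log2 ratio of 4.67.

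Across the 26 Rbm25 sites, the order of the sites was more alike in the ages by share than by level within cells. Spearman's rho of aged against young values was 0.82 for the share, 0.75 for the mean and 0.43 for the level within cells. These are descriptions across sites of 1 transcript that share cells, reads and base composition. The 15 GAACG sites of Rbm25 had a median share of 6.03% in aged and 1.94% in young cells, and the 10 other coding sites 3.90% in aged and 1.12% in young cells. Median mean C-to-U was 1.21% in aged and 0.252% in young cells at the GAACG sites, against 0.226% in aged and 0.126% in young cells at the other coding sites. Within cells the GAACG sites had a median of 12.8% in aged and 13.0% in young cells.

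**Figure D4:**
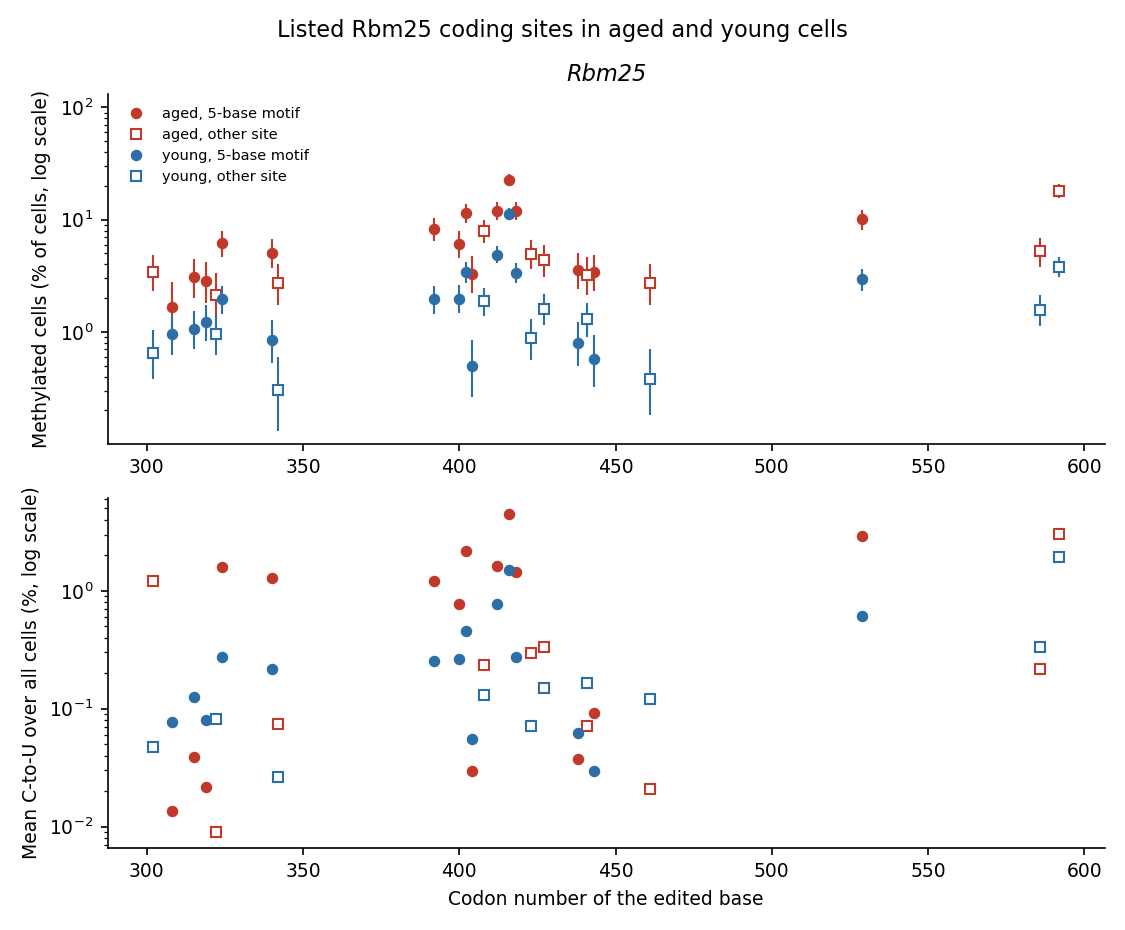
Share of methylated cells with 95% Clopper-Pearson intervals (top) and mean C-to-U over all cells (bottom), both on log axes, at the 25 Rbm25 coding sites by codon number, in aged (red) and young (blue) cells; filled circles are sites with the 5-base motif. All aged shares lie above the young ones, up to 22.6% at codon 416, while the mean is lower in aged cells at 9 sites.

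Luc7l3 lies on the minus strand of chromosome 11 (94291139 to 94321988), with 11 exons and 492 codons. Of its 10 sites, 4 had a higher mean C-to-U in aged cells and 6 a lower one, and C-to-U within cells was higher at 1. That site, position 94297059 in exon 8, is the one printed above. Its mean was 14.5% in aged and 1.07% in young cells, a difference of 13.4 points, and its methylated cells were 37.5% (34.2 to 40.8) of aged and 8.92% (7.86 to 10.1) of young cells. No other Luc7l3 site had an aged share over 7.68%, so this site stood apart from the rest of its transcript in either age. C-to-U within cells was 38.7% in aged and 12.0% in young cells.

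The other 3 increases in Luc7l3 were of another size. Position 94296981 (codon 294) had a mean of 0.214% in aged and 0.0414% in young cells, with methylated cells at 7.68% (5.98 to 9.69) of aged and 0.686% (0.407 to 1.08) of young cells. That ratio of shares, 11.2, was the largest of the 39 sites. Position 94296067 in exon 9 (codon 331) had a mean of 0.203% in aged and 0.0733% in young cells, and its methylated cells were 4.85% (3.50 to 6.52) of aged and 0.648% (0.378 to 1.04) of young cells. Position 94297044 (codon 273), 15 bases from the largest site, had a mean of 0.206% in aged and 0.138% in young cells, with methylated cells at 6.74% (5.14 to 8.64) of aged and 2.06% (1.55 to 2.68) of young cells. At these 3 sites C-to-U within cells was lower in aged cells, at 2.79%, 4.19% and 3.06%, against 6.03%, 11.3% and 6.70% in young cells at 94296981, 94296067 and 94297044. The ratio at 94297044, a log2 of 0.58, was the smallest that the table lists.

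The 3 largest decreases in Luc7l3 included a pair of adjacent bases. Positions 94296945 and 94296946 are the C of an arginine codon and the C before it, the last base of GAC, in exon 8 (codons 306 and 305). Mean C-to-U was 0.0203% in aged and 0.249% in young cells at 94296945, and 0.169% in aged and 0.262% in young cells at 94296946. They rested on few methylated cells, 25 aged and 21 young cells at 94296945 and 22 aged and 20 young cells at 94296946. Position 94306187 in exon 3 (codon 69), the 5′-most site of the gene, had a mean of 0.161% in aged and 0.263% in young cells, and the intervals of its shares overlapped, at 1.89% (1.08 to 3.05) of aged and 0.801% (0.496 to 1.22) of young cells. The 3′-most site, position 94296004 in exon 9 (codon 352), had a mean of 0.0327% in aged and 0.113% in young cells, with methylated cells at 5.44% (4.01 to 7.19) of aged and 0.762% (0.466 to 1.18) of young cells. Both remaining sites, 94297010 and 94297125, also had a lower mean in aged cells. Position 94297010 had the largest adjusted p of the 39 sites in the authors' deposited table, 0.0420, while that of the largest Luc7l3 site was 3.19e-136.

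Luc7l2 lies on the plus strand of chromosome 6 (38551465 to 38609470), with 10 exons and 393 codons, and had 3 sites. Position 38593453 in exon 7, printed above, had a mean of 4.21% in aged and 0.938% in young cells. Its methylated cells were 6.97% (5.35 to 8.90) of aged and 1.79% (1.32 to 2.38) of young cells, or 59 aged and 47 young cells, where the Luc7l3 site with the same 14 bases had 317 aged and 234 young cells. C-to-U within those cells was 60.3% in aged and 52.4% in young cells, against 38.7% in aged and 12.0% in young cells in Luc7l3. The Luc7l2 and Luc7l3 sites with this run thus differed in how many cells were methylated and in the level within them. The higher mean in aged cells at both was fixed in advance, since each was chosen as the largest increase of its gene. Whether these sites match in an alignment of the genes was not tested. Apart from 2 mismatches, the 41 bases around the Luc7l2 site also occur in the processed pseudogene Gm11889.

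The other Luc7l2 sites were methylated in few cells. Position 38603365 in exon 9 (codon 300) had 17 aged and 11 young methylated cells, a share of 2.01% (1.17 to 3.20) of aged and 0.419% (0.210 to 0.749) of young cells. Its mean was 0.0125% in aged and 0.178% in young cells, and within cells it was 0.620% in aged and 42.3% in young cells. Its 41 bases occur without a mismatch in Gm11889, so which of the 2 genes the reads came from is uncertain. Position 38557820 lay in intron 1, within an annotated retained-intron transcript and 5912 bases from the nearest exon of the main transcript. It had 15 aged and 10 young methylated cells, 25 in all, the lowest number the table lists. Its mean was 0.249% in aged and 0.0497% in young cells, and its shares of 1.77% (0.996 to 2.91) of aged and 0.381% (0.183 to 0.700) of young cells did not overlap in their intervals.

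**Figure D5:**
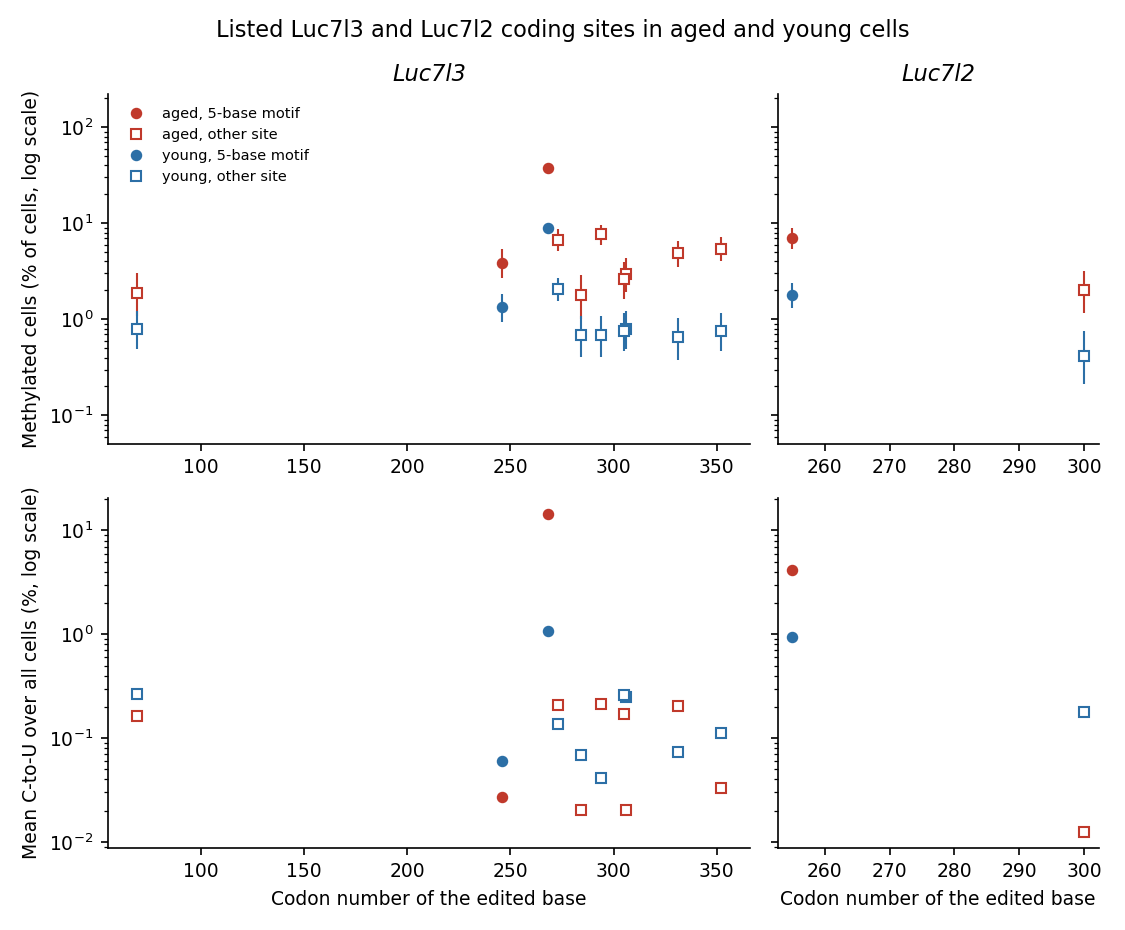
Share of methylated cells with 95% Clopper-Pearson intervals (top) and mean C-to-U over all cells (bottom), on log axes, at the 10 Luc7l3 and 2 Luc7l2 coding sites by codon number, in aged (red) and young (blue) cells; filled circles are sites with the 5-base motif. Codon 268 of Luc7l3 stands at 37.5% of aged and 8.92% of young cells, above its neighbours. Codon 255 of Luc7l2, whose site has the same run of 14 bases, stands at 6.97% of aged and 1.79% of young cells.

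The GAACG sites of the 3 genes had a lower median level within cells than GAACG sites of other genes, a difference given with no test. Over the 18 sites it was 13.1% in aged and 12.5% in young cells, against 63.9% in aged and 53.1% in young cells at the 130 GAACG coding sites of other genes. Their median share was 6.09% of aged and 1.87% of young cells, against 2.84% of aged and 0.972% of young cells at the sites of other genes. By mean C-to-U, 12 of the 18 were higher in aged cells, whereas 119 of the 130 were. Reads per cell were not measured, and their part in these levels was not tested.

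Other splicing genes were drawn from a list of 108 spliceosome subunits, SR-related proteins and splicing regulators, of which 38 had a listed site. Leaving out the 3 genes, 35 genes held 116 sites. A larger share of aged than young cells was methylated at 109 of them (94.0%), against 75.4% of all listed sites and 94.5% of listed coding sites outside the 3 genes. The share count is thus near that of listed coding sites in general. The mean was higher in aged cells at 58 (50%) and lower at 58. It was higher at 41.5% of all listed sites and 58% of listed coding sites outside the 3 genes. In 29 of the 35 genes all listed sites were higher by share. Several of these genes had only 1 listed site, and the same count over all listed genes was not made. The median ratio of shares was 3.93, against 3.56 in the 3 genes. It was 2.97 at listed coding sites outside the 3 genes and 2.18 at all listed sites.

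The 6 of these genes with the most sites were Srrm2, Pnisr, Hnrnpu, Snrnp70, Ddx5 and Rbfox3. Snrnp70 encodes the U1 subunit U1-70K. All 7 of its sites were higher by share and 4 by mean, and 4 had GAACG. Its largest difference, at position 45377202 on chromosome 7, was a mean of 1.22% in aged and 0.135% in young cells. Srrm2, a scaffold of nuclear speckles, had 23 of 23 sites higher by share and 8 by mean, with 1 GAACG. Pnisr, an SR-related speckle protein, had 13 of 14 higher by share and 6 by mean, and its largest difference was a decrease, at 1.02% in aged and 2.65% in young cells. Hnrnpu, a nuclear matrix RNA-binding protein, had 7 of 7 sites higher by share and 2 by mean. For the RNA helicase Ddx5 the counts were 6 of 6 by share and 4 by mean, and for the neuronal splicing regulator Rbfox3 5 of 5 by share and 1 by mean.

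Genes with at least 5 listed sites were also ranked by likeness in pattern, measured as the distance between median log2 ratios of the share and of the level within cells over both ages. Rbm25, with medians of 1.77 for the share and -0.70 within cells, lay nearest to Pclo (1.55 and -0.51), Strbp and Kalrn among 67 candidates. Luc7l3, with 1.83 and -2.18, lay nearest to Meg3 (1.88 and -2.22), Ttc3 and Tcf25. Rbm25 and Luc7l3 differed from each other mainly in the level within cells.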

How the data were processed

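The libraries were split-pool barcoded from fixed cells, per the labels' protocols. STAR 2.7.5 and mm10 are named in the submitters' processing notes, and Bullseye is the site caller named in the design text. No source read here states the authors' test, read filters or handling of molecular identifiers.

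The authors' deposited table gives, per the file headers, counts of methylated cells (not reads), the percent of cells methylated, the mean C-to-U fraction over all cells and over methylated cells, a log2 ratio, a p-value and an adjusted p-value. Each cell number divided by its percent gave 846 aged and 2623 young cells. The deposited log2 ratio is young over aged, and it was turned to aged over young. It is the log2 of the ratio of means. A Benjamini-Hochberg adjustment over 29127 sites gives the deposited ratios of p to adjusted p (whole ranks within 0.001 at 90.6% of sites). Listed sites have at least 25 methylated cells, an absolute log2 ratio of at least 0.58 and an adjusted p under 0.05. Sites just outside these limits are not in the table.

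Positions were read as counted from 0 and are printed counted from 1: so read, the edited base was C at 39 of 39 sites, and at 1 the other way. By gene name, sites were matched to transcripts of GENCODE M21 (GRCm38, the assembly of mm10), taking the highest-ranked transcript with an exon there (by APPRIS principal status, then CCDS, basic set, support level and length). Of 2055 sites, 2037 lay on an exon. Sequences come from these transcripts, in the direction of transcription, and motifs were searched on that strand. Copies of the 41 surrounding bases, up to 2 mismatches, were searched in all transcripts, not in the genome.

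The members and lists were chosen with earlier results of these data known. Named sites were all 3 of Luc7l2 and, for Rbm25 and Luc7l3, the 4 largest increases and 3 largest decreases of mean C-to-U, the highest shares and both ends. Positions 83664018, 83664078 and 83668156 of Rbm25, 94297010 and 94297125 of Luc7l3, GAACG, the codon comparisons and the printed stretch were chosen after values were seen. Cells of 1 age are not replicates, so no test was added. Intervals and cell numbers were checked on simulated tables with Python 3.11.15 and scipy 1.17.1.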

Additional observations from a re-analysis of the deposited data

How the results depend on the processing

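The split of the 39 sites was recounted with at least 50 methylated cells, with an A before the edited C, with sites within 10 bases counted once (31 groups), in coding sequence only, without Rbm25, and with the 41 bases in 1 annotated gene. In each case the percent of sites higher stayed within the 95% interval of the full count for the mean, the share and the level within cells. For the splicing list without the 3 genes only the mean and the share were recounted, and both stayed within theirs. For the share of the 39 sites this was fixed in advance, since all were higher. For the mean the interval was wide, 42.1 to 74.4, and the recounts reuse the same sites, so staying within it is a weak check. By mean, 46.2% of sites were higher without Rbm25 and 72% with at least 50 methylated cells, against 59% in full. No genome was used, so single copies were judged among transcripts alone. Counting a site as coding by any transcript changed nothing. Reading positions as counted from 1 left 0% of sites with a C after A, by construction.

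The direction of a named site depended on the measure. By share, 8 of 20 reversed to higher in aged cells, with log2 ratios of 2.83, 1.88, 1.77 and 1.24 at Luc7l3 positions 94296004, 94296945, 94296946 and 94306187, of 1.30, 2.83 and 1.73 at Rbm25 positions 83668269, 83668439 and 83674417, and of 2.26 at Luc7l2 position 38603365. Within cells 4 reversed to lower, with -1.43, -1.11 and -1.13 at Luc7l3 positions 94296067, 94296981 and 94297044 and -1.61 at Rbm25 position 83674435. The mean is the product of the other measures, so these follow from its construction. Where only shares with intervals apart were called, 2 of the 20 lost the call, Rbm25 position 83660752 and Luc7l3 position 94306187, whose shares were 1.25 and 1.09 points higher in aged cells. No paired analysis was possible because the table holds no value per library and the young cells have no numbered sample. Read depth is unknown.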

Other observations

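Some levels within aged cells were very low. At 9 of the 39 sites C-to-U within methylated aged cells was under 1%, and at 0 of 39 in young cells. Over all listed sites with a methylated aged cell the counts were 486 of 2036 in aged and 103 of 2036 in young cells, and over coding sites of other genes 148 of 751 in aged and 0 of 751 in young cells. At Rbm25 position 83664078 the 18 methylated aged cells averaged 0.423%. If each held at least 1 converted read, their reads at that base would have a harmonic mean of at least 236 per cell. At Luc7l3 position 94296004 the same arithmetic gives 166, and at Luc7l2 position 38603365 it gives 161, while at the largest Luc7l3 site it gives 2.58. How the authors computed the fraction and whether the table counts reads or molecules is unknown here, so these figures hold only under that assumption.

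All 9 of those sites had a larger share of methylated cells in aged cells, as all 39 sites did. They also had a lower mean, which largely follows from so low a level, since the mean is the share times the level within cells. GAACG was at 4 of the 9, near its part of all members, 18 of 39.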
